A study of Homo sapiens with 9 samples.

Results

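The comparison described here sets Hec50 cells given a mimic of the microRNA miR-200c against Hec50 cells given a scrambled small RNA as negative control. Hec50 is an established human endometrial cancer line, and both RNAs were used at 60 nM for 48 h. Members are the 3 mimic arrays and the 3 scrambled arrays, 6 of the 9 arrays of the series, and the other 3 hold cells labelled mock, for which the labels give no dose or time. The mock arrays entered the estimate of the spread and are set beside the result where named. RNA was measured on expression microarrays, and the question was which genes change when miR-200c is added to these cells. The unit of description is the gene: 41091 probe sets that carry exactly 1 gene symbol gave 19775 genes, and every one was tested with no filter on low values. Values are deposited log2 expression, centred so that each probe set has its median over the 9 arrays at 0, so they give differences between arrays and no levels. Each array held RNA of a whole culture, so less RNA per cell and fewer cells that hold it cannot be told apart. Whether the replicates are separate cultures is not given by the labels, so p-values measure the spread between these arrays alone.

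A microRNA guides a silencing complex to messenger RNAs that pair with its seed, the bases next to its 5′ end, and this lowers the stability and translation of those messages. The miR-200 family is abundant in epithelial cells and scarce in mesenchymal ones. Its best known targets are ZEB1 and ZEB2, zinc finger repressors that bind E-boxes and hold down E-cadherin and other epithelial genes. The mature sequences are shown because the seed sets which messages a mimic can pair with. They are RefSeq entries on GRCh38.p14, written 5′ to 3′ with bases 2 to 8 in capitals.
miR-200c-3p: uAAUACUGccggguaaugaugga
miR-200b-3p: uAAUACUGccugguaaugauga
miR-429: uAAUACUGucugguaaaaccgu
miR-141-3p: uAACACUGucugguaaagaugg
miR-200a-3p: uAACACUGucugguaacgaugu
miR-200c-3p, miR-200b-3p and miR-429 share the seed AAUACUG. miR-141-3p and miR-200a-3p hold AACACUG, which differs from it at 1 base. The miR-200c arm lies on the plus strand at chr12:6963742-6963764. miR-141 is encoded beside it on chromosome 12, and the other 3 lie on chromosome 1. The arm name given by the labels is miR-200c alone, and the sequence of the mimic itself was not analysed here.

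Replicate arrays were close: for pairs within a group, gene-wise log2 differences had an SD between 0.111 and 0.149. Of the epithelial markers, KRT8, KRT18 and EPCAM stood at a level of 8 or more of the original log2 value, recovered as described with the level classes, and rose with the mimic by 0.51, 0.50 and 1.06 on the log2 scale, while KRT7 at that level (0.00027, SE 0.060) and KRT19 at 4 to 8 (-0.03, SE 0.11) did not pass. PAX8, a factor of the endometrial lineage, was at a level of 8 or more and fell by 0.26. MUC16 and PGR lay below 4, as did PTPRC and LYZ of leukocytes, CDH5 and KDR of endothelium and LUM of fibroblasts, while ESR1 of the endometrial list, CD3E and CD14 of leukocytes, PECAM1 and VWF of endothelium and DCN and PDGFRB of fibroblasts stood at 4 to 8. The fibroblast collagens COL1A1 and COL1A2 were at 8 or more. No leukocyte, endothelial or fibroblast marker of the list was called, nor were MUC16, PGR and ESR1.

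With the mimic 1517 genes were higher and 1394 lower than with the scrambled RNA at a Benjamini-Hochberg adjusted p under 0.05 in limma, which is 7.67% and 7.05% of the genes tested and 14.7% in either direction. The changes were mostly small: the median called rise was 0.30 and the median called fall -0.27 on the log2 scale, with a median standard error of 0.055. At 1.2-fold or more stood 909 rises and 748 falls, at 1.5-fold 188 and 108, at 2-fold 45 and 12, and at 3-fold 8 and 1. Rises and falls were thus of similar number at the smallest sizes, and the changes of 2-fold or more were mainly rises. In 2896 of the 2911 called genes the 3 arrays of one group lay wholly beyond the 3 of the other, and in 15 they overlapped. Over all genes, called or not, the arrays were apart with the mimic higher in 14.6% and lower in 15.4%.

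The original level of a gene was removed by the centring, but the rounding of the stored numbers keeps a class: below 4, 4 to 8, or 8 and more on the log2 scale. Of 8321 genes at 8 or more, 11.5% rose and 12.2% fell. Of 9223 genes at 4 to 8, 5.89% rose and 3.95% fell, and below 4, among 2231 genes, 19 rose and 14 fell. Of the falls of at least 1.5-fold, 92 of 108 were at a level of 8 or more, against 105 of 188 rises. The median standard error was 0.053 in the upper class and 0.065 and 0.067 in the other classes, so the errors of the classes were near each other. The level class thus moved with the direction of the large changes, and its part in them was not tested.

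**Figure D1:**
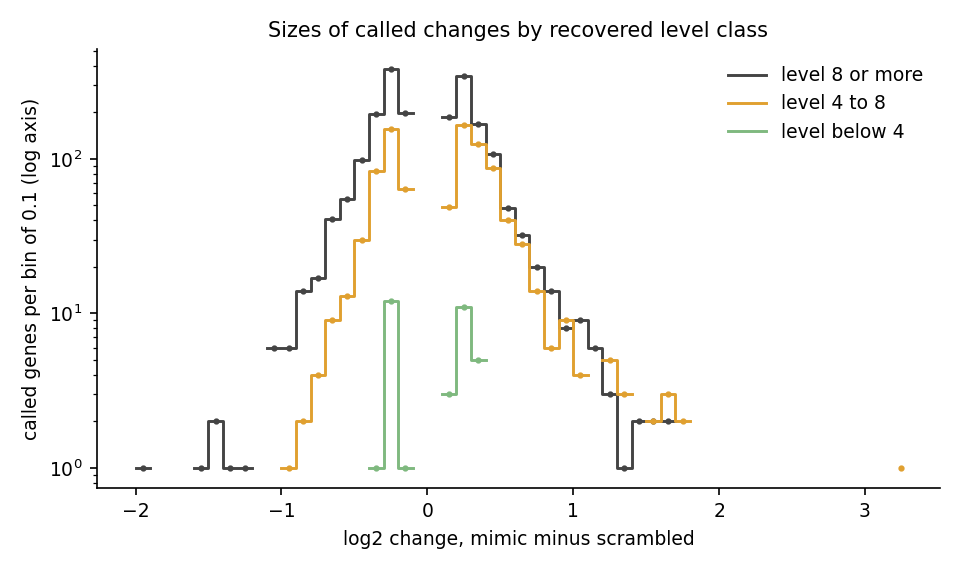
Counts of called genes per bin of 0.1 in log2 change (mimic minus scrambled, x axis) on a log y axis, drawn separately for genes at a recovered level of 8 or more, 4 to 8 and below 4. Beyond 2-fold (1 on the log2 scale) the rises of the 2 upper classes outnumber the falls, 45 to 12, and CDH1 stands alone at 3.26.

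The largest fall was that of OSTM1, the membrane partner of the lysosomal chloride transporter ClC-7. OSTM1 stood at 0.17, 0.14 and 0.25 in the scrambled arrays and -1.87, -1.67 and -1.80 in the mimic arrays, with the mock arrays at -0.04, -0.02 and 0.08. All 3 mimic arrays lay far under the other 6, a log2 change of -1.97 (3.91-fold lower, SE 0.060, 3 arrays per group, limma adjusted p = 6.83e-08), and 4 of 4 of its probe sets were called lower. ZEB1, the repressor whose message is the best known target of the family, read 0.04, 0.00 and 0.17 in the scrambled arrays and -1.51, -1.52 and -1.46 in the mimic arrays, a log2 change of -1.57 (SE 0.062, adjusted p = 1.57e-07). Its mimic arrays were close together and apart from all others. ZEB2 read 0.00, 0.00 and 0.20 in the scrambled arrays and -0.41, -0.61 and -0.48 in the mimic arrays, and its log2 change of -0.56 (SE 0.071, adjusted p = 0.000319) rested on 2 of 5 probe sets. Averaged over all of a gene's probe sets ZEB1 was at -0.99 and ZEB2 at -0.21, so both kept their direction at a smaller size.

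Several of the deepest falls belonged to the secretory route and the membrane. SEC23A, the inner coat protein of the COPII vesicles that leave the endoplasmic reticulum, read 0.23, 0.28 and 0.32 in the scrambled arrays and -1.11, -1.14 and -1.23 in the mimic arrays and fell 2.71-fold (SE 0.047, adjusted p = 6.83e-08). The scrambled arrays were its highest and the mock arrays lay between, at 0.00, -0.02 and 0.01. MAL, a raft protein of apical membrane traffic, read 0.00, 0.16 and -0.26 in the scrambled arrays and -1.17, -1.22 and -0.94 in the mimic arrays and fell 2.1-fold (SE 0.10, adjusted p = 5.6e-05). ANK2, an ankyrin that ties membrane proteins to the spectrin skeleton, fell by 0.999 (SE 0.050), but was at -0.29 with the mean of its probe sets. SSPN, a small protein of the dystrophin complex, fell by 0.87 and LHFPL6 by 0.87, the latter at -0.52 with the mean of its probe sets. UBXN8, a UBX domain protein, fell by 0.84 (SE 0.069).

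Enzymes that build sugars on proteins made up a share of the large falls. POGLUT2, which adds glucose to EGF-like repeats, read -0.02, 0.12 and 0.11 in the scrambled arrays and -1.22, -1.41 and -1.31 in the mimic arrays and fell 2.61-fold (SE 0.065, adjusted p = 4.64e-07). B4GAT1, which primes the laminin-binding glycan of dystroglycan, fell by 1.27 (SE 0.075) on 1 of 2 probe sets and was at -0.67 with the mean of both. HS3ST3B1 and HS6ST2 place sulfate groups on heparan sulfate, and they fell by 1.03 and 0.91 (SE 0.061 and 0.065). HS3ST3B1 is a gene in which the controls themselves differed: mock arrays read -0.02, 0.04 and -0.09 and scrambled arrays 0.38, 0.43 and 0.42. FUT9, which makes the Lewis x structure, fell by 0.85 (SE 0.056) and was at -0.39 with the mean of its 3 probe sets. The adjusted p of these 5 genes was at most 7.15e-06 in limma.

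Receptors, ligands and matrix proteins formed a further set of falls. EPHB1, a receptor tyrosine kinase for ephrin-B ligands, read 0.12, 0.00 and 0.36 in the scrambled arrays and -1.26, -1.21 and -1.33 in the mimic arrays and fell 2.69-fold (SE 0.092, adjusted p = 3.63e-06). With the mean of its probe sets it was at -0.85. Its ligand gene EFNB2 fell as well, by 0.54 (SE 0.062). FN1, the matrix protein fibronectin, read -0.0028, -0.03 and 0.08 in the scrambled arrays and -0.95, -1.04 and -0.92 in the mimic arrays and fell 1.98-fold (SE 0.059 on the log2 scale, adjusted p = 2.12e-06). Its mock arrays were higher still at 0.38, 0.54 and 0.54. RELN, the secreted protein reelin, fell by 0.82 and the chemokine gene CXCL12 by 0.82 (SE 0.051 and 0.090). GPC6, a glypican that carries heparan sulfate, read 0.27, 0.14 and 0.19 in the scrambled arrays and -0.44, -0.34 and -0.56 in the mimic arrays and fell by 0.65 (SE 0.068). EFNB2 and GPC6 were outside the 30 largest falls.

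The other large falls had roles inside the cell. ARPC1A, a subunit of the Arp2/3 complex that branches actin, read -0.04, 0.07 and 0.01 in the scrambled arrays and -0.83, -0.90 and -0.99 in the mimic arrays and fell by 0.92 (SE 0.054, adjusted p = 1.85e-06). RAP2C, a RAS-related GTPase, read 0.38, 0.32 and 0.40 in the scrambled arrays and -0.59, -0.65 and -0.63 in the mimic arrays and fell by 0.99 (SE 0.043). PPM1F, a phosphatase that acts on PAK and calmodulin-dependent kinases, fell by 0.89, and was at -0.47 with the mean of its 4 probe sets. SHCBP1, an adaptor of dividing cells, fell by 1.03, PPP1R1A, an inhibitor of protein phosphatase 1, by 1.01, and GTF2E1, a subunit of the general transcription factor TFIIE, by 0.88. DIXDC1, which carries the DIX domain of WNT signalling, fell by 0.91 and was at -0.44 with the mean of its probe sets, and CCNJ, a cyclin, fell by 0.82. Just outside the 30, the chaperone gene HSP90AB1, the constitutive cytosolic HSP90, read -0.06, 0.01 and 0.04 in the scrambled arrays and -0.78, -0.81 and -0.87 in the mimic arrays, and 3 of 3 probe sets were called lower (log2 change -0.81, SE 0.046). The remaining genes among the 30 largest falls were SLC17A3 (-1.03), ZCCHC24 (-1.04), RIPPLY1 (-0.94), SUSD5 (-0.89) and MGC12916 (-0.84). The promoter of MGC12916 (chr17:14303490-14303789) lies close to that of HS3ST3B1 (chr17:14300831-14301130), both on the plus strand. Whether their falls are separate was not tested. The RIPPLY1 value has the widest error of the 30 (SE 0.15), with mimic arrays at -0.64, -0.75 and -1.34.

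The largest rise was that of CDH1, the epithelial adhesion protein E-cadherin. CDH1 read 0.20, -0.19 and 0.00 in the scrambled arrays and 3.44, 3.26 and 3.08 in the mimic arrays, with the mock arrays at -0.46, -0.14 and -0.27, and rose 9.57-fold, or 3.26 on the log2 scale (SE 0.12, 3 arrays per group, adjusted p = 8.71e-08 in limma). This is the value of 1 of its 2 probe sets, both of which were called. With the mean of both CDH1 was at 1.92, and after quantile normalization at 1.96. Other genes of the epithelial surface rose with it. MAL2, which carries proteins from the basal to the apical side, read 0.00, -0.17 and 0.04 in the scrambled arrays and 1.61, 1.52 and 1.69 in the mimic arrays and rose 3.14-fold (SE 0.089, adjusted p = 1.07e-06). EPCAM, an adhesion protein of epithelia, read 0.00, 0.06 and -0.04 in the scrambled arrays and 1.05, 1.06 and 1.09 in the mimic arrays and rose 2.08-fold (SE 0.047). KRT15, a keratin of basal cells, rose by 1.56 (SE 0.10) and LAMB3, a chain of the laminin under epithelia, by 1.38 (SE 0.051). TENM2, a teneurin that binds latrophilins across cells, read -0.23, -0.79 and -0.35 in the scrambled arrays and 1.33, 1.11 and 1.19 in the mimic arrays. Its scrambled arrays spread over more than those of the other genes here, and its rise of 1.67 had an SE of 0.13.

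Transporters and enzymes of lipids and small molecules were among the large rises. CDS1, which makes CDP-diacylglycerol for the phosphoinositide cycle, read 0.00, -0.02 and -0.01 in the scrambled arrays and 1.65, 1.57 and 1.63 in the mimic arrays and rose 3.08-fold (SE 0.055, adjusted p = 6.83e-08), with 0.998 on the log2 scale for the mean of its 4 probe sets. ELOVL7, an elongase of fatty acids, read -0.64, -0.57 and -0.52 in the scrambled arrays and 0.95, 0.97 and 1.01 in the mimic arrays and rose 2.93-fold (SE 0.062, adjusted p = 1.66e-07). Its mock arrays, at 0.00, -0.03 and 0.20, stood between the groups. ALDH1A3, which makes retinoic acid and stood just outside the 30 largest rises, rose by 1.08 (SE 0.066) on 1 of 2 probe sets and was at 0.61 with the mean of both. AKR1D1, a reductase of steroids and bile acids, rose by 1.34 (SE 0.098). SCNN1A, the alpha subunit of the epithelial sodium channel, read -0.23, -0.27 and -0.16 in the scrambled arrays and 1.16, 1.28 and 1.13 in the mimic arrays on the probe set used, a rise of 1.41 (SE 0.052). That call ended when probe sets with more than 1 value of exactly 0 were left out (0.0035, adjusted p = 0.966), and the mean of its 3 probe sets was 0.45. SLC2A3, a glucose transporter, rose by 1.29 with all 3 of 3 probe sets called, though RNA of its near-identical copy SLC2A14 could add to the signal. SLC7A7, a transporter of basic amino acids, rose by 1.15 (SE 0.060).

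Small GTPase regulators, ligands and receptors were the next group. ARHGDIB, a dissociation inhibitor of small GTPases, read -0.22, 0.00 and 0.00 in the scrambled arrays and 1.68, 1.36 and 1.56 in the mimic arrays and rose 3.04-fold (SE 0.087, adjusted p = 1.08e-06), at 1.01 on the log2 scale with the mean of its 3 probe sets. ARL14, an ARF-like GTPase, read 0.06, 0.00 and -0.05 in the scrambled arrays and 1.73, 1.55 and 1.57 in the mimic arrays and rose 3.06-fold (SE 0.087). FGD6, an exchange factor for CDC42, rose by 1.19 (0.60 with the mean of its 5 probe sets), and EPS8L1, a relative of the actin regulator EPS8, by 1.27. FZD5, a WNT receptor, read -0.53, -0.60 and -0.65 in the scrambled arrays and 0.72, 0.59 and 0.70 in the mimic arrays and rose by 1.26 (SE 0.060, adjusted p = 4.99e-07), at 0.73 with the mean of both probe sets. INHBB, the beta B chain of activin and inhibin, read -0.07, -0.31 and -0.13 in the scrambled arrays and 1.11, 1.01 and 1.16 in the mimic arrays and rose by 1.26 (SE 0.064). EFEMP1, the matrix protein fibulin-3, rose by 1.19 (0.79 with the mean of its probe sets), and NTN4, a netrin of basement membranes, by 1.10 (SE 0.079), just outside the 30 largest.

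The rest of the 30 rises were of mixed kind. SCGB2A1, a small secreted protein of glands, read -0.52, -0.10 and -0.41 in the scrambled arrays and 1.41, 1.36 and 1.49 in the mimic arrays and rose 3.4-fold (SE 0.093, adjusted p = 9.34e-07). ZBED2 and ZNF165, zinc finger proteins, rose 3.32-fold and 2.99-fold. ZNF165 read -0.40, -0.30 and -0.38 in the scrambled arrays and 1.28, 1.19 and 1.19 in the mimic arrays. ST6GALNAC5, a sialyltransferase, rose by 1.43 and was at 0.63 with the mean of its 3 probe sets. RNF183, a ubiquitin ligase, rose by 1.36, and the ankyrin repeat genes ANKRD1 and ANKRD2, first described in muscle, by 1.32 and 1.24 (SE 0.14 and 0.13, the widest of this group). The long noncoding RNAs UCA1 and OLMALINC rose by 1.56 and 1.24. OLMALINC read -0.63, -0.54 and -0.53 in the scrambled arrays and 0.77, 0.58 and 0.68 in the mimic arrays beside 0.00, 0.07 and -0.01 in mock. CPVL, a carboxypeptidase, rose 2.3-fold, and ENPP5 (1.25) and ERVMER34-1 (1.11) complete the list, and the highest limma adjusted p of the 30 was 8.99e-05.

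**Figure D2:**
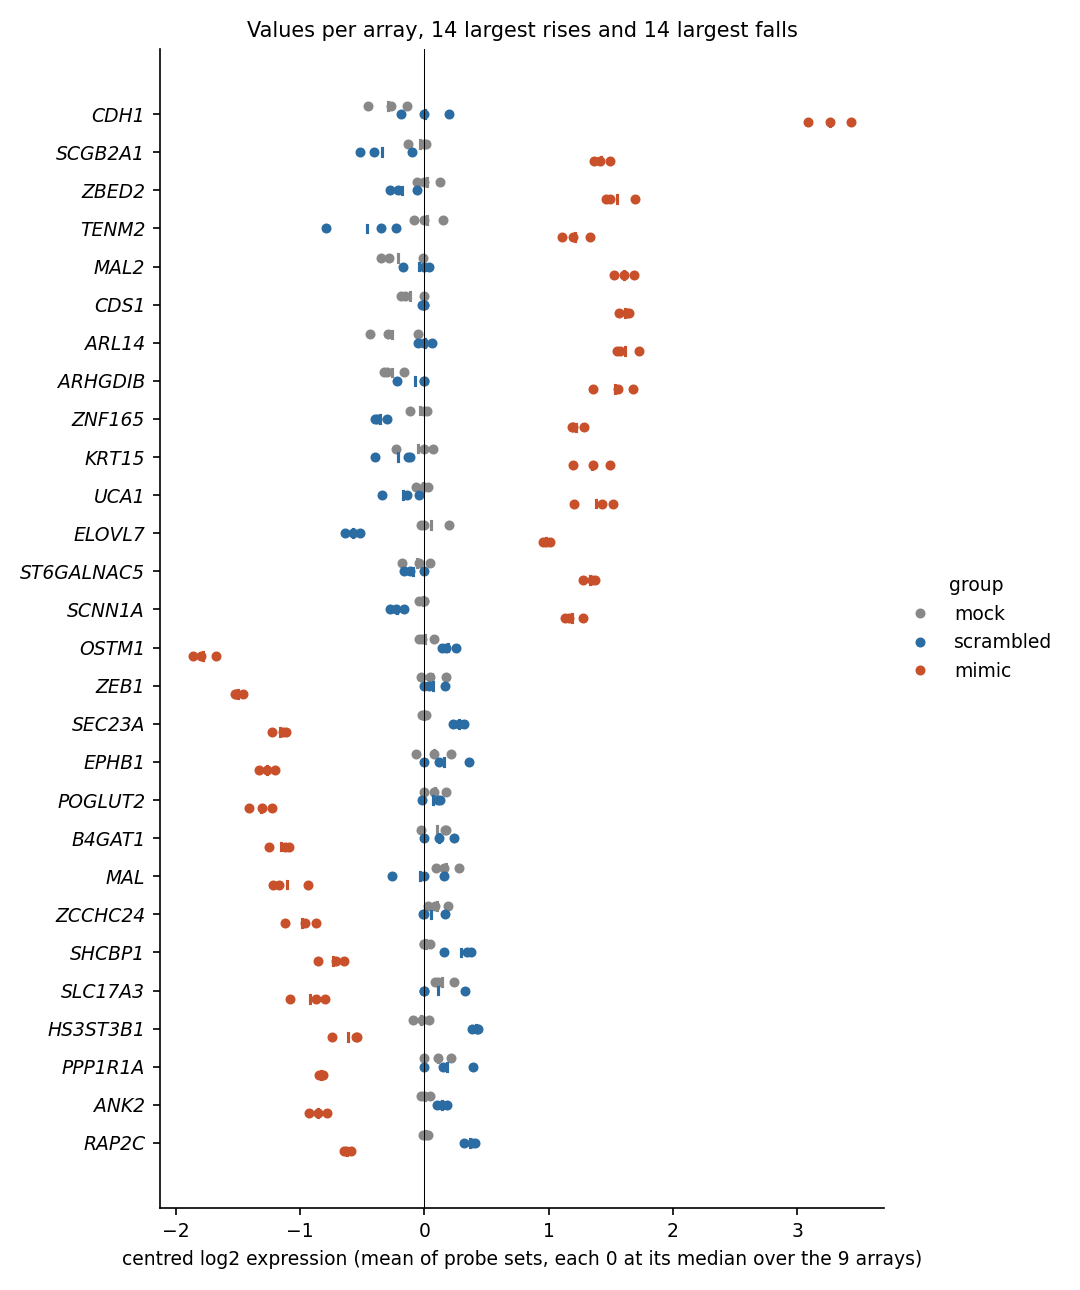
Centred log2 expression (x axis) of the 14 largest rises and the 14 largest falls, 1 point per array and a bar at each group mean, for mock (grey), scrambled (blue) and mimic (red). Genes were chosen among those whose mimic and scrambled arrays do not overlap, so that gap is a condition of entry. Mimic arrays run from CDH1 at 3.08 to 3.44 down to OSTM1 at -1.87 to -1.67.

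To look past single genes, 99 families and complexes were defined by symbol, each with at least 8 genes tested. They hold 4749 genes, of which 695 were called. Members were called in both directions in 76 families, higher alone in 16, lower alone in 6 and not at all in 1, the exocyst. Counts are read against the shares of all genes, 7.67% higher and 7.05% lower, and, since families differ in level, against the 11.5% and 12.2% of genes at a level of 8 or more. A median near 0 beside many calls means that the uncalled members held the middle. The median over all genes was -0.01.

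Junction proteins had the largest share of rises. Of 27 scaffolds of tight junctions and polarity, 12 rose and 1 fell (44.4% and 3.7%). At a level of 8 or more 6 of 17 rose, and the median over all 27 was -0.02. MARVELD2, which seals the corners where 3 cells meet, read 0.05, -0.17 and -0.05 in the scrambled arrays and 0.90, 0.72 and 0.71 in the mimic arrays and rose by 0.83 (SE 0.074). MARVELD3, its relative, rose by 0.66, and CGN, the cytoplasmic linker cingulin, by 0.63 (SE 0.080). LLGL1, a basal polarity protein, fell by 0.36, a call that ended once all of its probe sets were averaged (-0.13, limma adjusted p = 0.102). Of the claudins, the strands of the same junction, 1 of 20 passed, CLDN16 at 0.24, and its call ended under most alternatives, among them the fit without any 1 of the mock arrays. Of 13 catenins and plaque proteins of desmosomes 5 rose and 0 fell: PPL (1.05), PKP2 (0.71), DSP (0.69), PKP3 (0.43) and JUP (0.38), with SE of 0.055 to 0.084. PPL, the linker periplakin, read 0.00, -0.27 and 0.00 in the scrambled arrays and 1.01, 0.87 and 1.01 in the mimic arrays.

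Among the 28 cadherins, CDH3 (P-cadherin) rose by 0.99 and DSC2 (desmocollin) by 0.47 beside CDH1, and CDH6 fell by 0.28. The other 24 did not pass, a share called of 14.3% that is close to the 14.7% of all genes. Of 13 gap junction proteins 3 rose (GJB2 0.46, GJB1 0.34, GJA1 0.21, whose call ended without mimic replicate 2 or scrambled replicate 1) and 0 fell. Of 44 keratins 3 rose and 2 fell, near the shares of all genes. Integrins held 3 higher, 4 lower and 18 uncalled genes of 25. ITGB8, which activates latent TGF-beta, read -0.23, -0.24 and -0.21 in the scrambled arrays and 0.73, 0.82 and 0.92 in the mimic arrays and rose by 1.05 (0.48 with the mean of its probe sets), ITGB5 rose by 0.37, and ITGA3, a receptor for laminins, fell by 0.34. Collagens held 3 higher, 5 lower and 35 uncalled genes of 43, and all 5 falls were among the 11 at a level of 8 or more. COL18A1 fell by 0.34, and COL24A1 rose by 0.59. The fall of COL6A1 (-0.37) ended once all of its probe sets were averaged (-0.02) and turned to 0.02 without the probe sets of more than 1 exact 0. Annexins held 3 higher, 1 lower and 7 uncalled genes of 11, and ANXA3 rose by 0.87 (SE 0.058). The calls of ANXA1 (0.17) and of ANXA10 (-0.25), the fall, ended under several alternatives. Examples are ANXA1 with the mean of its probe sets (limma adjusted p = 0.292) and ANXA10 without mimic replicate 1 (0.124). Tetraspanins held 4 higher, 1 lower and 23 uncalled genes of 28, with TSPAN1 at 0.65 and TSPAN13 at 0.45.

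**Figure D3:**
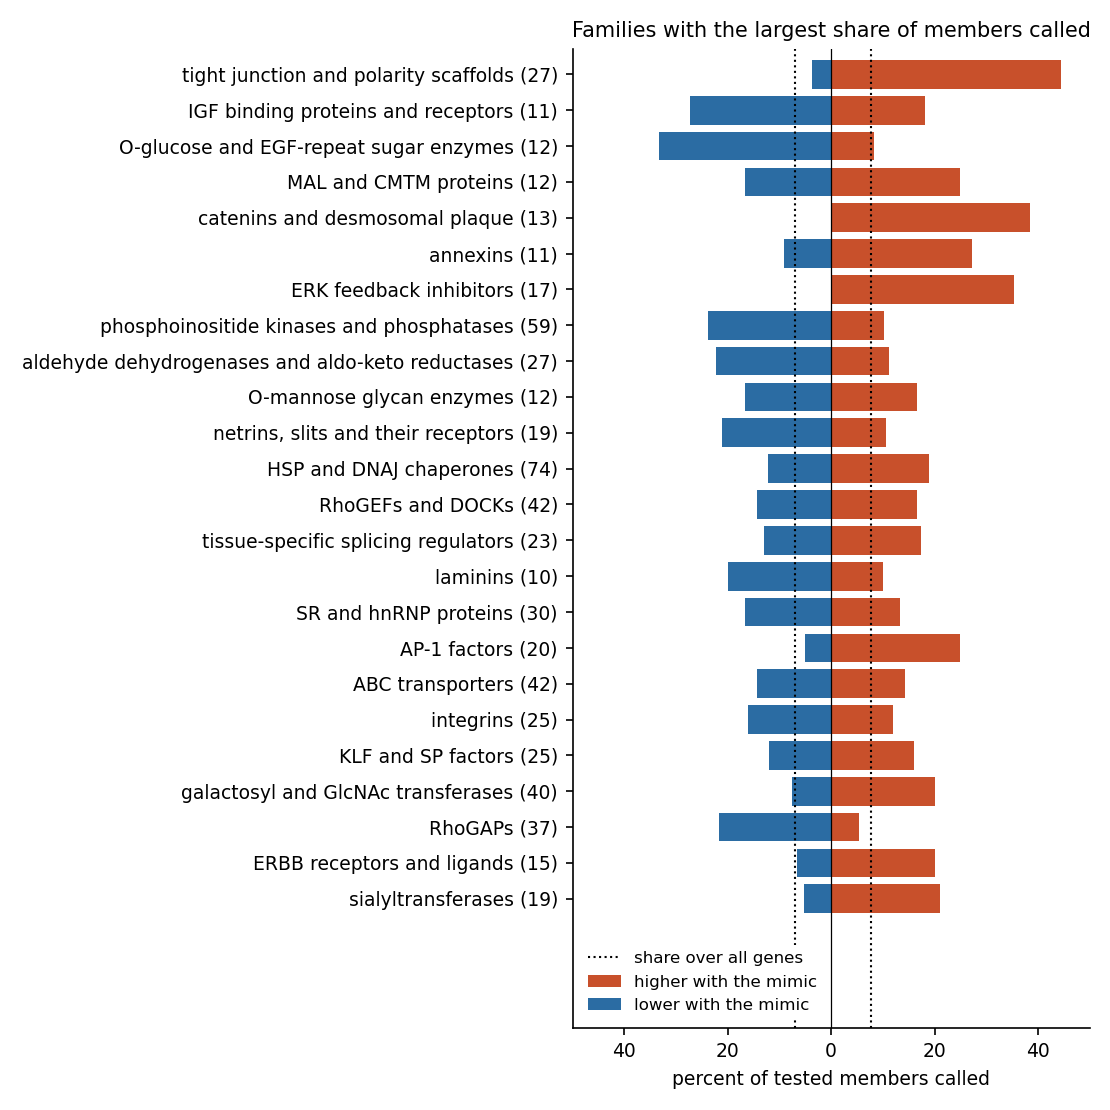
Percent of the tested members (number in brackets) called higher (red, right) or lower (blue, left) with the mimic, for the 24 families of at least 10 tested members with the largest share called; dotted lines are the shares over all genes, 7.67% and 7.05%. Tight junction scaffolds reach 44.4% higher and sugar enzymes of EGF-like repeats 33.3% lower.

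In membrane traffic calls went in both directions, in 22.2% of COPII genes, 23.1% of clathrin adaptors, 22.4% of RAB GTPases and 15.8% of SNAREs, beside the 14.7% of all genes. Most of these genes were at a level of 8 or more, where 11.5% of all genes rose and 12.2% fell. At that level 3 rose and 1 fell of 16 COPII genes, and 3 and 3 of 22 adaptors. RAB GTPases held 5 and 6 of 35 there, and SNAREs 2 and 3 of 27. Of the vacuolar ATPase genes 18.2% were called, of sorting nexins 13.3% and of COPI and p24 genes 11.1% each. Synaptotagmins (9.52%), VPS proteins (8.82%) and the exocyst (0%) had smaller shares. Of 18 genes of the COPII coat and endoplasmic reticulum exit sites 3 rose and 1 fell, the deep fall of SEC23A. SEC24A, the cargo-binding partner of SEC23 proteins, read -0.52, -0.75 and -0.52 in the scrambled arrays and 0.28, 0.45 and 0.34 in the mimic arrays and rose by 0.95 (SE 0.071), SEC23B by 0.28 and the GTPase gene SAR1B by 0.20. The mock arrays of SEC24A read -0.08, 0.00 and 0.03, above the scrambled ones. With the mean of its 3 probe sets, all of which were called, SEC24A was at 0.59. Clathrin adaptors held 3 higher, 3 lower and 20 uncalled genes of 26. AP1M1, a medium chain of the AP-1 adaptor of the trans-Golgi, read 0.00, 0.12 and -0.06 in the scrambled arrays and -0.51, -0.64 and -0.53 in the mimic arrays and fell by 0.58 (SE 0.056). AP1S2, a small chain of AP-1, fell by 0.75 (SE 0.052), but its 4 probe sets did not all point one way: 3 were lower and 1 higher, from -1.40 to 0.24. AP4E1, the large chain of AP-4, fell by 0.52 (-0.15 with the mean of its probe sets). SNAREs, the proteins that fuse membranes, held 2 higher, 4 lower and 32 uncalled genes of 38. VTI1B, of late endosomes, read 0.11, 0.10 and 0.13 in the scrambled arrays and -0.37, -0.38 and -0.41 in the mimic arrays and fell by 0.50 (SE 0.041), and SNAP23, of the plasma membrane, fell by 0.40 with all 4 of 4 probe sets called. RAB GTPases held 6 higher, 7 lower and 45 uncalled genes of 58, each by less than 0.5, with RAB17, an epithelial RAB, at 0.38 and RAB4A, of recycling endosomes, at -0.46.

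Sugar enzymes were called often. Those that decorate EGF-like repeats, the modules of Notch and of many matrix proteins, held 1 higher, 4 lower and 7 uncalled genes of 12 (33.3% lower, the largest share of falls of any family of 10 or more genes in the plot of families). LFNG, which extends O-fucose, read 0.20, -0.02 and 0.11 in the scrambled arrays and -0.44, -0.62 and -0.54 in the mimic arrays and fell by 0.63 (SE 0.066), at -0.37 with the mean of both probe sets. GXYLT1, which extends O-glucose, read 0.15, 0.28 and 0.16 in the scrambled arrays and -0.40, -0.29 and -0.35 in the mimic arrays and fell by 0.54, EOGT fell by 0.29, and GXYLT2 rose by 0.29. Galactosyl and GlcNAc transferases rose more often than they fell: 8 higher, 3 lower and 29 uncalled genes of 40. B4GALT4, which makes N-acetyllactosamine, read -0.63, -0.44 and -0.57 in the scrambled arrays and 0.21, 0.05 and 0.24 in the mimic arrays and rose by 0.71 (SE 0.064). MGAT4A, which branches N-glycans, read -0.48, -0.57 and -0.86 in the scrambled arrays and 0.07, 0.01 and -0.04 in the mimic arrays and rose by 0.65. For both the mock arrays were nearer to the mimic: B4GALT4 at 0.02, -0.07 and 0.00 and MGAT4A at 0.00, 0.03 and 0.02. O-GalNAc transferases, which start mucin-type sugars, held 3 higher, 2 lower and 14 uncalled genes of 19. GALNT6 read -0.31, -0.26 and -0.36 in the scrambled arrays and 0.67, 0.44 and 0.53 in the mimic arrays and rose by 0.85 (SE 0.063) on both of its probe sets. Enzymes of heparan and chondroitin sulfate held 6 higher, 6 lower and 39 uncalled genes of 51, with CHSY1, which extends chondroitin, at -0.44 beside the falls given above.

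RhoGAPs, which switch small GTPases off, fell more often than they rose: of 37 genes 8 fell and 2 rose (21.6% and 5.41%), and at a level of 8 or more 6 of 18 fell. ARHGAP19 read -0.03, 0.02 and 0.00 in the scrambled arrays and -0.67, -0.78 and -0.76 in the mimic arrays and fell by 0.73 (SE 0.045, limma adjusted p = 2.59e-06). The next falls, of ARHGAP23 (-0.45) and ARHGAP35 (-0.34), ended with the mean of their probe sets (-0.04 and -0.09, adjusted p = 0.747 and 0.249), and ARHGAP23 was at 0.06 without the probe sets of more than 1 exact 0. Exchange factors, which switch them on, held 7 higher, 6 lower and 29 uncalled genes of 42, with TIAM1, which acts on RAC, at 0.47 and VAV3 at -0.39. Enzymes that make, cut or dephosphorylate phosphoinositides held 6 higher, 14 lower and 39 uncalled genes of 59, and all 14 falls were among the 39 at a level of 8 or more, where 12.2% of all genes fell. PIP4K2A, a phosphoinositide kinase, read -0.01, 0.02 and 0.04 in the scrambled arrays and -0.50, -0.67 and -0.61 in the mimic arrays, and PLCG1, the phospholipase below growth factor receptors, read 0.0043, 0.00 and -0.05 in the scrambled arrays and -0.48, -0.70 and -0.70 in the mimic arrays. Both fell by 0.61 (SE 0.052 and 0.060). INPP4A, a phosphatase of phosphoinositides, fell by 0.53, while its relative INPP4B rose by 0.55 (0.16 without the probe sets of more than 1 exact 0).

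Phosphatases and Sprouty-type proteins that act on MAP kinase signalling, with feedback inhibitors of ERK among them, held rises and no called fall. Of 17 genes 6 rose and 0 fell (35.3% higher), and at a level of 8 or more 3 of 9 rose. The median of the 17 genes was 0.001 for mimic minus mock and -0.089 for scrambled minus mock. DUSP5, a nuclear ERK phosphatase, read -0.47, -0.41 and -0.44 in the scrambled arrays and 0.14, 0.00 and 0.00 in the mimic arrays, a rise of 0.48 (SE 0.054). DUSP4 read -0.19, -0.23 and -0.18 in the scrambled arrays and 0.41, 0.34 and 0.21 in the mimic arrays and rose by 0.52, DUSP10 by 0.42, DUSP3 by 0.31, DUSP2 by 0.27 and DUSP6 by 0.17. Against mock, which shares the mimic arrays, DUSP5 was at -0.03 and DUSP10 at 0.05, and the scrambled arrays stood -0.52 and -0.37 from mock. DUSP4 was at 0.30. Fibroblast growth factors and receptors held 4 higher, 0 lower and 26 uncalled genes of 30, a share called of 13.3% beside the 14.7% of all genes. FGFBP1, which releases FGFs from the matrix, read -0.02, -0.02 and 0.03 in the scrambled arrays and 1.01, 0.91 and 0.59 in the mimic arrays and rose by 0.84, with FGF18 at 0.48 and FGF2 at 0.46. Insulin-like growth factor genes held 2 higher, 3 lower and 6 uncalled genes of 11. IGF1R, the signalling receptor, read -0.10, -0.05 and -0.02 in the scrambled arrays and 0.67, 0.62 and 0.64 in the mimic arrays and rose by 0.70 (SE 0.048) with 4 of 5 probe sets called. Of ERBB ligands TGFA rose by 0.53 and BTC by 0.48, and ERRFI1, an inhibitor of the receptor, fell by 0.41.

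Inflammatory signals were mostly uncalled, but those at a level of 8 or more often moved. Of 36 chemokines 5 rose and 2 fell, and of the 6 at that level 4 rose and 1 fell. CXCL8, which draws neutrophils, read -0.24, -0.06 and 0.14 in the scrambled arrays and 0.75, 0.86 and 0.71 in the mimic arrays and rose by 0.83 (SE 0.085), CXCL1 rose by 0.69 and CCL2 by 0.46, against the fall of CXCL12. Of 80 interleukins and receptors 7 rose and 4 fell, with 7 and 3 of the 21 at a level of 8 or more. IL1R2, a decoy receptor of interleukin 1, read -0.11, 0.05 and -0.01 in the scrambled arrays and 0.93, 0.86 and 0.90 in the mimic arrays and rose by 0.92 (SE 0.049). IL6ST, the shared signal chain gp130, rose by 0.61 and IL6R by 0.50. TNFRSF11B, the decoy receptor osteoprotegerin, read 0.08, 0.04 and 0.07 in the scrambled arrays and -0.38, -0.47 and -0.51 in the mimic arrays and fell by 0.51 (SE 0.046). Adhesion-type receptors coupled to G proteins held 4 higher, 0 lower and 22 uncalled genes of 26, led by ADGRF1 at 0.80. The share called, 15.4%, was close to the 14.7% of all genes.

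Extracellular proteases and their inhibitors were called in shares near that of all genes: 11.3% of the trypsin-like group and 15.6% of the metalloproteinases, beside 14.7%. The group of trypsin-like surface proteases and Kunitz-type inhibitors, defined by symbol, held 6 higher, 0 lower and 47 uncalled genes of 53. SPINT2, an inhibitor of matriptase and hepsin, was at 0.54. PRSS16, at 0.80, was counted by its symbol and is not described here as trypsin-like. Metalloproteinases and their inhibitors held 3 higher, 7 lower and 54 uncalled genes of 64. At a level of 8 or more 5 of 17 fell and 0 rose, with ADAMTS3, which processes procollagen, at -0.56 and ADAMTS1 at -0.42. The rises were at a level of 4 to 8: MMP10, a stromelysin, read -0.06, 0.07 and -0.22 in the scrambled arrays and 1.17, 0.77 and 0.61 in the mimic arrays and rose by 0.92, and MMP1, the interstitial collagenase, by 0.59. CST6, a cystatin, read -0.11, -0.20 and 0.02 in the scrambled arrays and 0.78, 0.68 and 1.11 in the mimic arrays and rose by 0.95 (SE 0.10), while the cathepsin genes CTSO (-0.26), CTSB (-0.19) and CTSC (-0.15) were lower. The calls of CTSB and CTSC ended in most of the settings that left out an array. Netrins, slits and receptors held 2 higher, 4 lower and 13 uncalled genes of 19, with SLIT2, a ligand of ROBO receptors, at -0.51 on all 3 of 3 probe sets.

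Genes of the ribosomes, the respiratory chain and the proteasome were seldom called. Of 60 cytosolic ribosomal proteins 0 rose and 2 fell, of 75 mitochondrial ones 1 and 2, of 79 respiratory chain genes 2 and 4, and of 42 proteasome genes 3 and 0, although 74 of the 75 mitochondrial ribosome genes and 40 of the 42 proteasome genes were in the upper class. Aminoacyl-tRNA synthetases (4 higher, 3 lower of 30) and SR and hnRNP proteins (4 and 5 of 30) were called more often, in 23.3% and 30%. The share of all genes was 14.7%, but nearly all of these genes were at a level of 8 or more. There 11.5% of all genes rose and 12.2% fell, beside 4 and 3 of 29 synthetases. Of 28 SR and hnRNP proteins at that level 4 rose and 4 fell. Chaperones held 14 higher, 9 lower and 51 uncalled genes of 74 (31.1% called), with 13 and 9 of the 55 in the upper class. DNAJC24, of the diphthamide pathway, fell by 0.67 beside HSP90AB1, and DNAJB1 rose by 0.48. Solute carriers, the largest family of transporters, held 42 genes that rose and 20 that fell, or 12% and 5.7% of those tested. Glycolysis held 4 higher, 0 lower and 20 uncalled genes of 24. Besides SLC2A3, PFKFB2 was at 0.34 and SLC2A1, the main glucose transporter, at 0.36, a call that ended once all of its probe sets were averaged (0.18, limma adjusted p = 0.0672). The other was PFKFB4 at 0.18, and its call ended without mimic replicate 3 (limma adjusted p = 0.0688), scrambled replicate 2 (0.0635) or scrambled replicate 3 (0.0607). Aldehyde dehydrogenases and aldo-keto reductases held 3 higher, 6 lower and 18 uncalled genes of 27. ALDH8A1 read 0.01, 0.00 and -0.02 in the scrambled arrays and -0.62, -0.82 and -0.61 in the mimic arrays and fell by 0.68 (SE 0.080). Cytochromes P450 held 5 higher, 0 lower and 42 uncalled genes of 47, or 10.6% called, under the 14.7% of all genes. CYP1A1 led at 0.43 with CYP2R1, which hydroxylates vitamin D, at 0.40.

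Among nuclear factors, zinc finger genes named ZNF were called in smaller shares than all genes: of 466, 10 rose (2.15%) and 28 fell (6.01%). 143 of them were in the upper level class. Kruppel-like and SP factors held 4 higher, 3 lower and 18 uncalled genes of 25. KLF5, a factor of growing epithelia, read -0.30, -0.10 and -0.20 in the scrambled arrays and 0.69, 0.56 and 0.59 in the mimic arrays and rose by 0.81 (SE 0.062), and KLF4, of differentiating epithelia, rose by 0.70. Both of the probe sets of each gene were called. OVOL2, a repressor of mesenchymal genes, read -0.03, -0.04 and -0.08 in the scrambled arrays and 0.65, 0.46 and 0.58 in the mimic arrays and rose by 0.61 (SE 0.059). Its 2 probe sets were at 0.21 and 1.01. The other 8 of 9 grainyhead and OVOL factors did not pass. AP-1 factors held 5 higher, 1 lower and 14 uncalled genes of 20, with MAFF at 0.66 (0.41 with the mean of its probe sets) and JUNB at 0.30. ETS factors held 1 higher, 4 lower and 20 uncalled genes of 25. The epithelial ELF3 was the rise (0.34), ELK3 fell by 0.37, and the calls of ELK4 and ETS1 ended with the mean of their probe sets (-0.13 and -0.16). Histone lysine demethylases and methyltransferases held 1 higher, 6 lower and 37 uncalled genes of 44, with KDM5B at -0.35 (-0.21 with the mean of its probe sets). HOX genes held 0 higher, 3 lower and 25 uncalled genes of 28, or 10.7% called, under the 14.7% of all genes. The call of HOXA2 (-0.22) ended under most alternatives, among them quantile normalization (limma adjusted p = 0.051) and the fit without any 1 of the mock arrays. Tissue-specific splicing regulators held 4 higher, 3 lower and 16 uncalled genes of 23. QKI, a regulator of exon choice and circular RNA, read 0.06, -0.07 and 0.01 in the scrambled arrays and -0.69, -0.70 and -0.85 in the mimic arrays and fell by 0.74 (SE 0.057) with 6 of 10 probe sets called lower. PTBP3 read -0.38, -0.32 and -0.28 in the scrambled arrays and 0.21, 0.25 and 0.17 in the mimic arrays and rose by 0.54 with all 5 of 5 called.

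Ubiquitin ligase subunits moved both ways. KLHL and KBTBD adaptors held 4 higher, 6 lower and 32 uncalled genes of 42. KLHL2, an adaptor of cullin 3, read -0.62, -0.64 and -0.63 in the scrambled arrays and 0.20, 0.23 and 0.22 in the mimic arrays and rose by 0.85 (SE 0.047), F-box proteins held 7 higher, 6 lower and 46 uncalled genes of 59, and FBXW11, the beta-TrCP2 subunit, fell by 0.52. Of the 47 USP enzymes 4 rose and 2 fell, or 12.8% called, under the 14.7% of all genes. The falls were those of USP46 and USP12, close relatives, by 0.62 and 0.59 (-0.28 and -0.36 with the mean of their probe sets). The highest value of any USP enzyme was 0.46. Named long noncoding RNAs were seldom called: 27 rose and 16 fell of 885, of which 63 were in the upper level class. LINC01503 read -0.18, -0.18 and -0.10 in the scrambled arrays and 0.83, 0.58 and 0.68 in the mimic arrays and rose by 0.85 (SE 0.061).

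Within many families relatives were called in opposite directions. For 14 pairs, chosen after their values were seen, the lower and the higher relative stand side by side in the plot of relatives. The widest gaps were those of MAL (-1.07) and MAL2 (1.65), which serve apical traffic, and of SEC23A (-1.44) and SEC24A (0.95), the partners of the inner COPII coat. The synthases CDS2 and CDS1 make the same lipid, and the former fell by 0.32 where the latter rose by 1.62. Receptor pairs split likewise. The signalling receptor IL1R1 fell by 0.36 and the decoy IL1R2 rose by 0.92. FZD6 fell by 0.28 and FZD5 rose by 1.26. The clearance receptor IGF2R fell by 0.31 and IGF1R rose by 0.70. Of the binding proteins IGFBP2 and IGFBP3, which bind IGFs outside the cell, the former was at -0.34 and the latter at 0.66. Among polarity proteins LLGL1 was at -0.36 and LLGL2 at 0.45, and among splicing regulators PTBP2 was at -0.47 and PTBP3 at 0.54. The call of PTBP2 ended without the probe sets of more than 1 exact 0 (-0.18, limma adjusted p = 0.253). LAMC1, the common laminin gamma chain, fell by 0.57 (SE 0.050) against the rise of LAMB3, and the sialyltransferase ST3GAL1 fell by 0.40 against that of ST6GALNAC5.

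**Figure D4:**
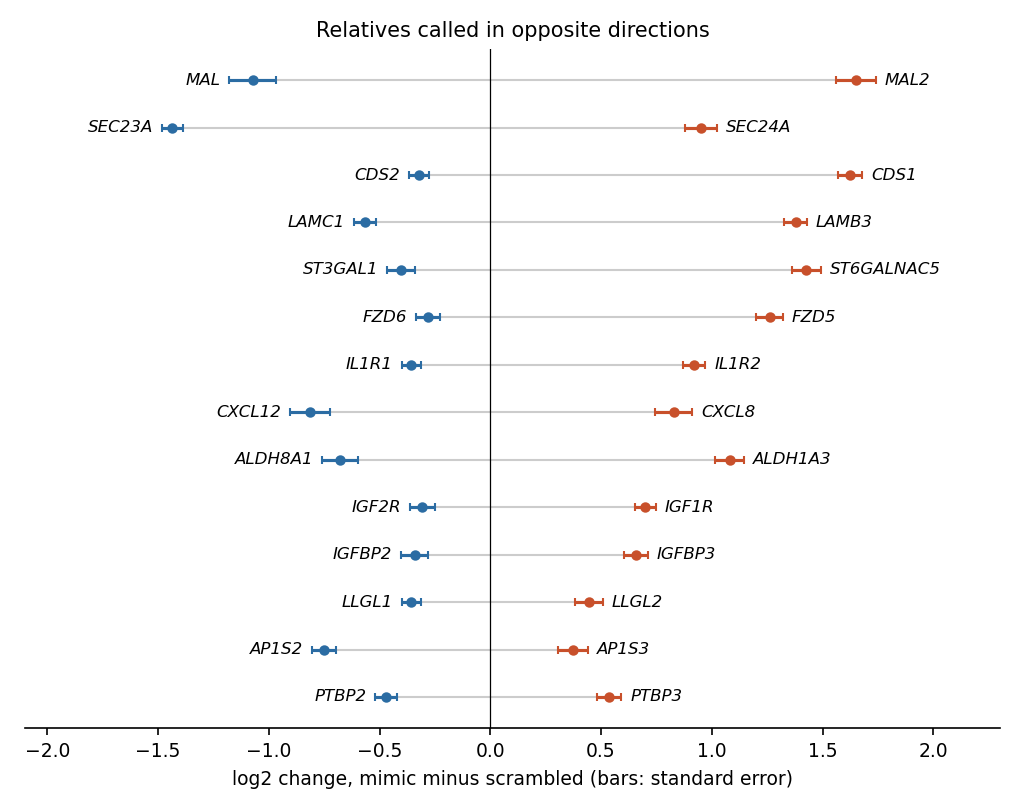
Log2 change, mimic minus scrambled (x axis), of 14 pairs of relatives called in opposite directions, with bars of 1 standard error, the lower relative in blue and the higher in red. The widest gaps are those of MAL (-1.07) and MAL2 (1.65) and of SEC23A (-1.44) and SEC24A (0.95).

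The scrambled RNA is itself a treatment, so for the named genes the mock arrays were set beside both groups. These comparisons share arrays with the one described, and their values are given side by side without a test of likeness. For ZEB1, POGLUT2, B4GAT1 and ARPC1A the scrambled arrays stood 0.0049, -0.01, 0.01 and -0.03 from mock, and the mimic arrays -1.56, -1.40, -1.26 and -0.94. In ELOVL7, OLMALINC and FZD5 the scrambled arrays lay under mock, with scrambled minus mock values of -0.63, -0.58 and -0.57 (limma adjusted p = 0.000499, 0.000471 and 0.000703), and the mimic stood 0.92, 0.66 and 0.69 over mock. ENPP5 went the other way, with scrambled over mock by 0.53 and the mimic over mock by 1.78. RAP2C and HS3ST3B1 had scrambled arrays 0.36 and 0.44 over mock and mimic arrays -0.63 and -0.59 from it. FN1 and QKI were below mock in both: scrambled minus mock was -0.47 and -0.43, and mimic minus mock -1.46 and -1.17.

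Other calls have a mimic level close to mock. MMP1 read -0.72, -0.46 and -0.55 in the scrambled arrays and 0.10, -0.06 and 0.00 in the mimic arrays and 0.11, 0.20 and 0.29 in mock, so the mimic was -0.19 and the scrambled RNA -0.77 from mock. MGAT4A was at -0.0049 and -0.65 in the same order, DUSP5 at -0.03 and -0.52, and the co-chaperone gene DNAJB1 at -0.03 and -0.51. ZNF114 and KLHL2 were between, with 0.30 and 0.21 for the mimic and -0.59 and -0.64 for the scrambled RNA. GDF15, a stress-induced ligand, was below mock in both, at -0.51 and -0.86, although it was called higher with the mimic (0.35). That call ended once all of its probe sets were averaged (0.08, limma adjusted p = 0.292). In such genes the rise with the mimic and a fall with the scrambled RNA cannot be told apart from these 2 groups alone. Of 2 measures of RNA integrity and labelling, that of ACTB differed between the groups and that of GAPDH stayed near 0. For ACTB the 3′ control probe set minus the 5′ one averaged -0.18 (SD 0.03) over the mock arrays, 0.10 (SD 0.04) over the scrambled ones and 0.02 (SD 0.08) over those with mimic, 3 arrays each, and its part in these results was not tested. The same difference for GAPDH averaged 0.027 (SD 0.035), 0.0073 (SD 0.023) and -0.015 (SD 0.035) in that order.

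**Figure D5:**
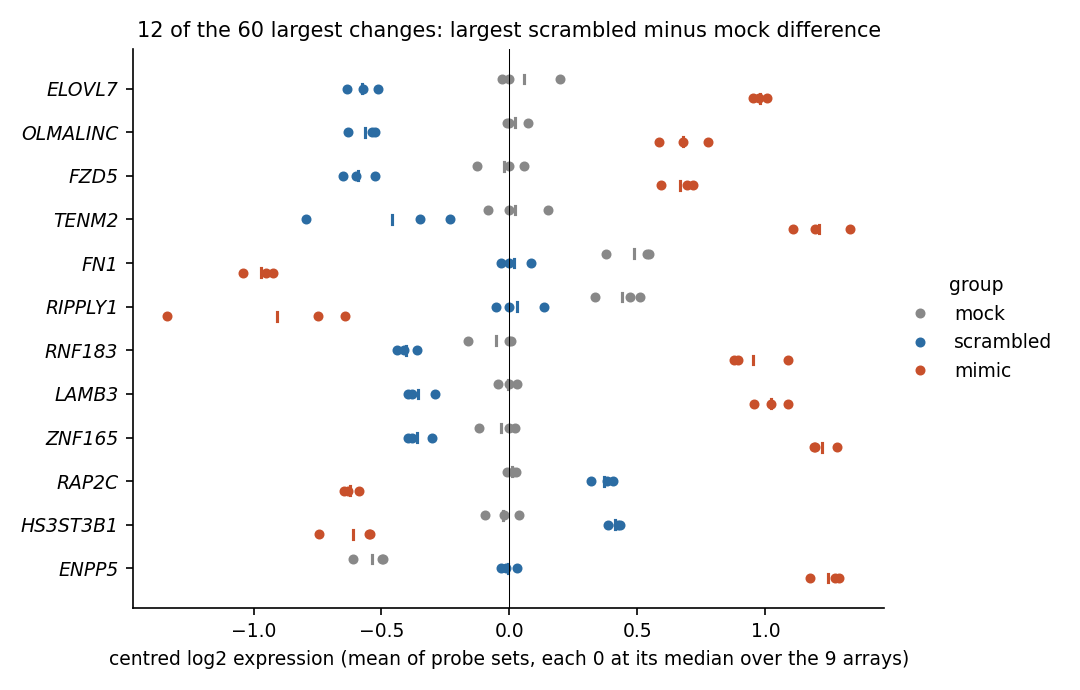
Centred log2 expression (x axis) in mock (grey), scrambled (blue) and mimic (red) arrays, 1 point per array and a bar at each mean, for the 12 of the 60 largest changes whose scrambled and mock means differ most. ELOVL7 has its scrambled arrays at -0.64 to -0.52, its mock arrays at -0.03 to 0.20 and its mimic arrays at 0.95 to 1.01.

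ZEB factors bind the E-box CAGGTG, whose reverse complement is CACCTG, so the promoters of named genes were searched for either word over 250 bases before to 50 after the RefSeq start (GRCh38.p14). The word stood in 20.6% of all 27305 promoters of that length, and in 19.6% of the 15384 promoters of tested genes. Promoters were matched for 26 of the 30 largest falls, and 3 of them (11.5%) held it. For the rises the check is void, since only 21 of the 30 largest and 148 of the 188 of at least 1.5-fold had a promoter in the table, under 80%. Of the 1149 promoters of called falls 181 held it (15.8%). Of the largest rises CDS1, LAMB3, FZD5, ANKRD1, ANKRD2, EPS8L1 and ERVMER34-1 hold 1 match each, and SCGB2A1, ZBED2 and TENM2 are among those that hold none. The falls that hold 1 are ZEB1, PPM1F and CCNJ. ELOVL7 and ENPP5 are shown because each holds 2 matches, given in capitals, and both rose by more than 1 on the log2 scale. Of all promoters 3.47% hold 2 or more, and of those of tested genes 3.02%. These genes were picked by their matches among rises, where the check is void, so they say nothing about rises as a group. A match is a description of letters and not a bound site.
ELOVL7, chr5:60844220-60844519, minus strand: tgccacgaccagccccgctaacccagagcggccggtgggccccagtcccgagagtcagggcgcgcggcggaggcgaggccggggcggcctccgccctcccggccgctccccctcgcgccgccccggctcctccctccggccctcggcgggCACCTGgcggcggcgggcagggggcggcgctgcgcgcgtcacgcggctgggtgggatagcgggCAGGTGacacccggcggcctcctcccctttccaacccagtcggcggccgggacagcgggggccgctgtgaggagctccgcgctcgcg
ENPP5, chr6:46170931-46171230, minus strand: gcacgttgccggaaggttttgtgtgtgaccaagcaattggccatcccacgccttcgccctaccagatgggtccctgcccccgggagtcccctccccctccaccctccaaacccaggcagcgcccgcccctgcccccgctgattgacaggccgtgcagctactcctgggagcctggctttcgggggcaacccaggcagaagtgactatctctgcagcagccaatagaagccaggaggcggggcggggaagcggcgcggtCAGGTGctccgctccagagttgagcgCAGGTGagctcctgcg
In ELOVL7 the first bases of the matches lie at -100 and -37 from the gene start, and in ENPP5 at 8 and 34 after it.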

How the data were processed

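Hec50 RNA was measured on 9 expression arrays. The deposited values are log2 expression of 54675 probe sets, centred by the authors so that each has a median of 0 over the 9 arrays; that centring was read from the values, and the probe set summary and normalization methods are not given in the sources used here. Control probe sets (62) were left out, as were 1801 probe sets with several symbols and 11721 with none. Gene symbols came from the platform annotation and none changed when checked against the reference table. In 48.89% of probe sets more than 1 array held exactly 0.

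Rounding steps of the stored numbers gave each probe set a level class; 97.9% of 6000 simulated probe sets were placed in the right one. A gene's value is the mean of its probe sets in its highest class, which left out some probe sets in 6165 of 10523 genes with more than 1. Log2 differences were fitted with limma 3.58.1 in R 4.3.3 over all 9 arrays, with eBayes, Benjamini-Hochberg adjustment over 19775 genes and a threshold of 0.05. The script was tested on simulated data, where 96.4% of genes changed by 0.5 and all changed by 1 or 2 on the log2 scale were called, and 5.53% of the 1049 calls were false.

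The genes named are the 30 largest rises and falls with groups apart, up to 4 called members per family, CDH1, ZEB1 and ZEB2. Families were described first where at least 3 members were called and the share in 1 direction was at least 1.5 times that over all genes. MARVELD3, PKP3, DUSP2, DUSP6, EOGT, INPP4A and EPCAM, and the genes set against mock, were added after their values were seen. Members and lists were chosen with earlier results of these data known. After values were seen, antisense and divergent transcripts, and HSPG2, which is no chaperone, were taken out of the families, and family counts at a level of 8 or more were added. A family of GTPases is not reported here. Replicate numbers were not used to pair the arrays in the main fit. Deviations of mimic and scrambled arrays of the same number correlated at -0.0805, -0.0603 and -0.0421. Same-number pairs with a mock array ran from -0.156 to 0.117. With 3 arrays per group such values cannot show whether arrays were handled in sets. Alternatives are given in the closing section.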

Additional observations from a re-analysis of the deposited data

Results flagged for a closer look

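Probe sets with no gene symbol do not enter the comparison by gene. Of 11721 such probe sets, 261 were higher and 249 lower with the mimic than with the scrambled RNA (limma, adjusted p under 0.05), with log2 changes from -0.95 to 1.57. They were singled out as signal outside the genes described, and what they measure was not analysed here.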

How the results depend on the processing

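The counts of 1517 higher and 1394 lower genes stayed within 1.5 times of these values in every alternative run on genes. Each probe set tested on its own gave 2313 higher and 2159 lower probe sets, and 382 and 244 past 1.5-fold, since a gene can count more than once. With probe sets of level 8 or more alone, 105 rises of at least 1.5-fold were left of 188. Leaving out 1 array gave 1151 to 1461 higher and 998 to 1324 lower genes, and 175 to 198 and 100 to 122 at 1.5-fold. A fit with the replicate number as a block gave 1370 and 1223. The mean of all probe sets of a gene gave 1354 and 1146, with 156 and 72 at 1.5-fold. Quantile normalization of the centred values gave 1491 and 1282, with 146 and 83, but it shrinks the largest changes by itself. Direction turned for ABCC3 (-0.0594), ARHGAP23 (0.0625), COL6A1 (0.0186), LGR4 (0.0508) and TENM3 (0.19) without probe sets of more than 1 exact 0, and for ARID5B (-0.0167) and SOX30 (-0.0117) with the mean of all probe sets; the cause was not tested. With 3 arrays per group the smallest called change was 0.13 on the log2 scale.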
